A study of Mus musculus with 6 samples.

Results

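The genes described here encode 10 peptide hormones of the islets of Langerhans and the gut. They were given as a list and found on the array as rows annotated with exactly 1 symbol. All 10, of 19938 genes tested, had a single row, so no choice between rows was needed. They were grouped into 5 islet hormones (Ins2, Iapp, Gcg, Sst and Ppy) and 3 gut hormones (Gast, Cck and Nts). The other 2, Pyy and Ghrl, were grouped as hormones that fetal islets and the gut both make. These classes are labels that overlap, since Gcg and Sst are also made in the gut and Gast also in the fetal pancreas. RNA came from whole pancreata dissected from mouse embryos at E13.5. The 3 control pools carried the wild type genotype. The 3 mutant pools were Pdx1-Cre; Ctnnb1 tm1Mmt/+, in which Cre expressed from the Pdx1 promoter removes the floxed exon 3 of 1 copy of the β-catenin gene and leaves an active β-catenin. Each pool joined 3 pancreata on 1 Affymetrix Mouse Gene 1.0 ST array, so the spread between pools understates that between embryos, and no strain is named in the sources used here. Cre acts in the Pdx1-expressing epithelium, while the dissected tissue also holds mesenchyme, vessels and nerves. Fewer hormone cells and less hormone RNA per cell cannot be told apart in such bulk samples. The study also reports mutant cells that kept normal amounts of pancreatic factors and lacked nuclear β-catenin, and names inefficient excision by Cre as the likely reason. The mutant pools may therefore mix cells with and without active β-catenin, in shares that these arrays do not give.

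Islet hormones are made as longer precursors by α, β, δ, PP and ε cells, which arise from Neurog3-expressing progenitors of the pancreatic trunk epithelium. Enteroendocrine cells of the stomach and intestine also pass through Neurog3 and make an overlapping set of peptides, and several of these peptides are made by neurons as well. In the mouse, glucagon-producing cells are the first endocrine cells to appear in the pancreatic bud, and the main wave of insulin-producing cells follows later.

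Of the 10 hormone genes, the mutant pools had lower values than the controls in 8 and higher values in none, while Sst and Nts fell short of the threshold (limma, adjusted p under 0.05, n = 3 pools per genotype). Over all genes tested, 7.53% were lower and 6.59% higher by the same rule. At an unadjusted p under 0.05 the counts of hormone genes were also 8 lower and 0 higher, where 25.5% of all genes passed in either direction. The median log2 change of the 10 genes was -1.87, where that of all genes was 0.03. In 7 hormone genes the decrease was at least 2-fold, against 2.09% of all genes, and in 4 of them, Iapp, Cck, Pyy and Gcg, at least 4-fold, against 0.577%. These 7 decreases all ranked among the 173 largest of the 19938 genes. In the same 8 genes every mutant pool lay below every control pool, which held for 13.9% of all genes, and no hormone gene had every mutant pool above (16.9% of all genes). Thus 8 of 10 hormone genes showed no overlap between the genotypes, against 30.9% of all genes. Ctnnb1 itself had array values of 12.36, 12.14 and 12.33 in the controls and 12.64, 12.37 and 12.65 in the mutants (log2 change 0.28 ± 0.11 SE, limma adjusted p = 0.148), and these probes do not check the loss of exon 3.

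**Figure D1:**
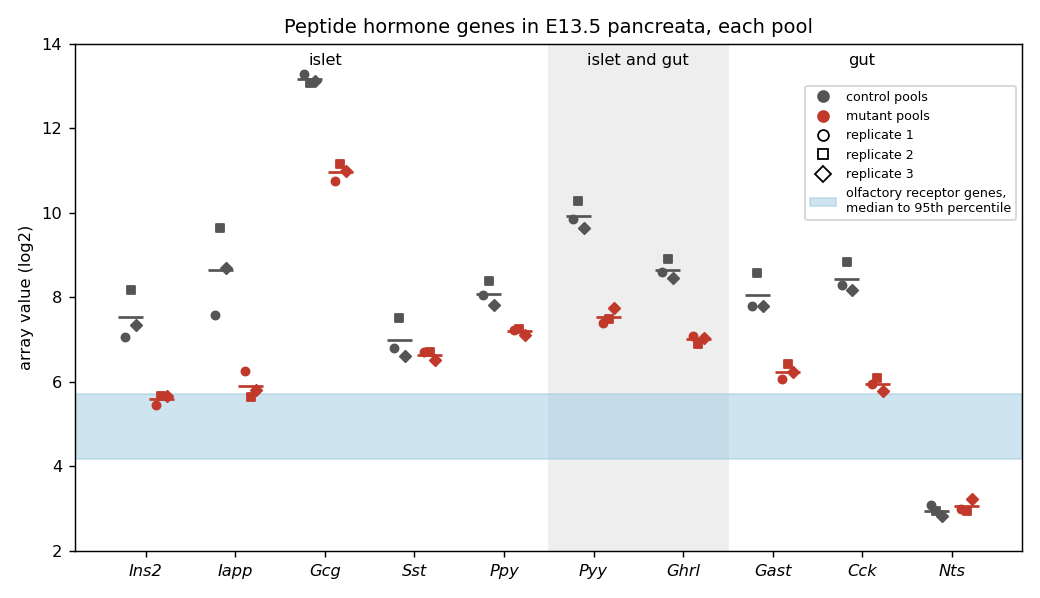
Array values (log2, vertical axis) of the 10 hormone genes in each pool; grey symbols are the 3 control pools, red symbols the 3 mutant pools, symbol shape gives the replicate and horizontal bars are means. All red symbols lie under the grey ones in 8 genes and overlap with them for Sst and Nts; the blue band runs from the control median (4.17) to the mutant 95th percentile (5.72) of the olfactory receptor genes.

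The promoters of 6 hormone genes are shown because 4 of them are the largest decreases of the set (Iapp, Cck, Pyy and Gcg), 1 is the gene next to Pyy (Ppy) and 1 did not pass the test (Sst). Each is the 250 bases before the RefSeq transcript start of assembly GRCm38.p6, read 5′ to 3′ on the gene's strand. The Iapp window is chr6:142298175-142298424, plus strand, that of Cck is chr9:121495695-121495944, minus strand, and that of Gcg is chr2:62483654-62483903, minus strand. The Pyy window is chr11:102107833-102108082, minus strand (the first of 2 starts in the table), that of Ppy is chr11:102101320-102101569, minus strand, and that of Sst is chr16:23890845-23891094, minus strand. Capitals mark 3 short motifs, each on either strand. CANNTG, in which N is any base, is the E-box read by basic helix-loop-helix factors such as Neurod1. The core read by many homeodomain factors such as Pdx1 is TAAT. The Tcf and Lef partners of β-catenin read a core that holds CTTTG.
Iapp promoter: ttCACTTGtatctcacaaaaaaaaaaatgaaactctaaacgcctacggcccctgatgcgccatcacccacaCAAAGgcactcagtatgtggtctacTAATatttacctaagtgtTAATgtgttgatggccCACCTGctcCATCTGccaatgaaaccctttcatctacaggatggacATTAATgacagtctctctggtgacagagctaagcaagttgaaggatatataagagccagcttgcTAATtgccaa
Cck promoter: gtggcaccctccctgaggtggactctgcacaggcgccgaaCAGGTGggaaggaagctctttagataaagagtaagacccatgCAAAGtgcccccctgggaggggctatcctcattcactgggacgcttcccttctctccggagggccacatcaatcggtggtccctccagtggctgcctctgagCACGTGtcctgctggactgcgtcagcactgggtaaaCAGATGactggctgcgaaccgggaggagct
Gcg promoter: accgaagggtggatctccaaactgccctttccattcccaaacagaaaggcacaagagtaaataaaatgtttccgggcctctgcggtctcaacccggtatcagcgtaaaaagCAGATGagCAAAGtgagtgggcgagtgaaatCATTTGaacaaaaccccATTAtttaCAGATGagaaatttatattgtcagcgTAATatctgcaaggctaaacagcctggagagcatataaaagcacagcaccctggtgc
Pyy promoter: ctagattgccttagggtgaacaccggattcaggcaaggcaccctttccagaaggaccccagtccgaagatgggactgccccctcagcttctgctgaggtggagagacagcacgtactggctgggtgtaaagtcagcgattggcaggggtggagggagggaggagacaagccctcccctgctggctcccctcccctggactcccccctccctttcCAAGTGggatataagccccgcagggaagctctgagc
Ppy promoter: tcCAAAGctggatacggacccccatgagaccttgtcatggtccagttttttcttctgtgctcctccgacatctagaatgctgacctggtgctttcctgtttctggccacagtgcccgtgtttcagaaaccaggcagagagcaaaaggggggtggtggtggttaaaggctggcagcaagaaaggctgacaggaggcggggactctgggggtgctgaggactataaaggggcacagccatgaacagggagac
Sst promoter: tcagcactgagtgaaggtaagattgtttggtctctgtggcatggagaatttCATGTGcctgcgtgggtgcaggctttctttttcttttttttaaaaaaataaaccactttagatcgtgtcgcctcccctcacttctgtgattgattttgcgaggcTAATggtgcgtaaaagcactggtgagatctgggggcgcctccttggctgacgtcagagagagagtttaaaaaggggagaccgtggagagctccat

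RefSeq promoters were matched for 9 of the 10 genes, all but Ins2, with 13 windows in all, since Ghrl has 4 starts and Pyy 2. No match overlapped one of another motif. Of the 13 windows, 10 held an E-box, 5 held TAAT and 9 held CTTTG. Of all 32851 RefSeq windows, 66.22% held an E-box, 54.92% TAAT and 48.58% CTTTG. Windows of the same gene can overlap, as those of Pyy and some of Ghrl do, so a match can count more than once. By gene, 8 of the 9 held an E-box in any window, 5 TAAT and 6 CTTTG, and the share over all genes was not counted. The windows of Iapp and Gcg, which fell 6.64-fold and 4.57-fold, held 3 E-boxes each and 5 and 2 matches to TAAT. Cck, which fell 5.64-fold, held 3 E-boxes and no TAAT, and Pyy, which fell 5.21-fold, held 1 E-box and neither of the other motifs. Sst, which did not pass the test, held 1 E-box and 1 TAAT, and Nts, which did not pass either, held 1 match to each motif. A match of this kind describes letters in a window.

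Among the islet hormones, Iapp had the largest change. It encodes amylin, a peptide that β cells release with insulin. Its array values were 7.58, 9.65 and 8.69 in the controls and 6.27, 5.64 and 5.81 in the mutants (log2). The control pools spread over 2.07 log2 units and still stayed above every mutant pool. The mutant mean of 5.91 lay just above 5.72, the 95th percentile of the olfactory receptor genes in the mutant pools. Mutant replicate 2, at 5.64, lay below that percentile, so the low end of the array may limit the measured fold. The change was -2.73 ± 0.41 SE (95% interval -3.65 to -1.81, limma adjusted p = 0.00138), a 6.64-fold decrease. It was 4.68-fold without control replicate 2, 9.59-fold without control replicate 1 and 4.26-fold with arrays weighted by quality. Iapp is among the genes the study itself listed from these arrays, so its direction is not independent evidence.

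Ins2, an insulin gene of the mouse, had values of 7.06, 8.17 and 7.35 in the controls and 5.46, 5.67 and 5.67 in the mutants (log2). The genotypes were separated by 1.39 log2 units, and the measured fold decrease was 3.80 (log2 change -1.93 ± 0.23 SE, limma adjusted p = 0.000363). The mutant mean of 5.60 ± 0.12 (SD, n = 3) lay within the range of olfactory receptor genes, whose 95th percentile was 5.72 in the mutant pools, a level that by this guide cannot be told from the low end of the array. The fold therefore describes the measured values only, as it does for other genes whose mutant mean lay within this reference. The other mouse insulin gene, Ins1, is nearly identical to Ins2 over much of its transcript and is not analysed here, and the value of Ins2 may hold signal from both.

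Gcg encodes proglucagon, the precursor of glucagon in α cells and of glucagon-like peptides in intestinal L cells. Its values were 13.30, 13.07 and 13.11 in the controls and 10.76, 11.16 and 10.99 in the mutants (log2). Control pools differed by 0.23 log2 units at most, against a change of -2.19 ± 0.12 SE (95% interval -2.46 to -1.92, limma adjusted p = 1.9e-06), a 4.57-fold decrease. The highest value on any array was 14.14, so the control values of Gcg lay near the upper end of the scale.

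Of the other islet hormones, Ppy was lower and Sst did not pass. Ppy, which encodes pancreatic polypeptide of PP cells, had values of 8.06, 8.40 and 7.81 in the controls and 7.23, 7.26 and 7.12 in the mutants (log2). It fell 1.85-fold (log2 change -0.89 ± 0.14 SE, limma adjusted p = 0.00178), with a gap of 0.55 log2 units between the genotypes. Sst, which encodes the somatostatin of δ cells and of gut D cells, had values of 6.81, 7.52 and 6.62 in the controls and 6.70, 6.70 and 6.53 in the mutants. Here the genotypes overlapped, and only control replicate 2 stood above the rest. The log2 change of Sst was -0.34 ± 0.20 SE (95% interval -0.78 to 0.10, limma adjusted p = 0.336), and its interval overlapped that of Ppy, -1.20 to -0.57. Without control replicate 2 the change of Sst was -0.07.

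Pyy and Ghrl, the hormones of both organs, were lower as well. Pyy encodes peptide YY, which is made by intestinal L cells and, in the mouse, by early islet cells of several kinds. Its values were 9.87, 10.27 and 9.65 in the controls and 7.39, 7.50 and 7.75 in the mutants (log2), a 5.21-fold decrease (log2 change -2.38 ± 0.16 SE, limma adjusted p = 6.39e-06). The gap between the genotypes, 1.90 log2 units, was wider than the spread within either of them. Ghrl encodes ghrelin, the appetite-stimulating hormone of the stomach and of fetal ε cells. It had values of 8.59, 8.91 and 8.47 in the controls and 7.08, 6.90 and 7.04 in the mutants, a 3.14-fold decrease (log2 change -1.65 ± 0.12 SE, adjusted p = 1.37e-05). In the mutant pools both genes stayed above the olfactory receptor reference.

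None of the genes classed as gut hormones was higher. Of these, Gast and Cck had means of 8.05 and 8.44 (log2) in the control pancreata. Cck encodes cholecystokinin, which intestinal I cells and neurons make and which drives secretion by the exocrine pancreas. Its values were 8.29, 8.84 and 8.18 in the controls and 5.95, 6.08 and 5.79 in the mutants (log2), a 5.64-fold decrease (log2 change -2.50 ± 0.17 SE, limma adjusted p = 6.13e-06). Its gap of 2.10 log2 units between the genotypes was the widest of the 10 genes. The mutant mean of Cck, 5.94, lay just above the olfactory receptor 95th percentile of 5.72. Gast encodes gastrin, the acid-stimulating hormone of gastric G cells, which is also made for a time in the fetal pancreas. It had values of 7.79, 8.58 and 7.79 in the controls and 6.06, 6.43 and 6.24 in the mutants, a 3.50-fold decrease (log2 change -1.81 ± 0.20 SE, adjusted p = 0.000202).

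Nts, the neurotensin gene of enteroendocrine N cells and neurons, had values of 3.09, 2.95 and 2.82 in the controls and 2.99, 2.94 and 3.23 in the mutants (log2). The genotypes overlapped, with a log2 change of 0.10 ± 0.11 SE (95% interval -0.15 to 0.35, limma adjusted p = 0.668). All 6 values lay below 4.17, the control median of the olfactory receptor genes, so that by this guide Nts could not be told from the low end of the arrays and a difference between the genotypes was not detectable. The 1027 olfactory receptor genes serve as a guide only, because probe sets differ in brightness for reasons other than transcript level. Measured against their 95th percentile, 9 of the 10 hormone genes were above it in the control pools and 8 in the mutant pools, Ins2 being the gene that dropped to within it.

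Set side by side, the islet hormones had a median log2 change of -1.93 (4 of 5 lower, range -2.73 to -0.34), the hormones of both organs one of -2.02 (2 of 2 lower) and the gut hormones one of -1.81 (2 of 3 lower, range -2.50 to 0.10). The islet median is the value of Ins2 and the gut median that of Gast, so this comparison comes down to a pair of genes, of which Ins2 was within the low-end guide in the mutants. These medians differed by -0.12, and by -0.18 to -0.06 when single pools were left out. When medians were taken within each pool, over values centred on the control mean, their difference had an SD of 0.0904 between pools of a genotype. Such medians can fall on genes other than Ins2 and Gast, so this SD is not the spread of that pair. Counting Pyy and Ghrl together as islet or together as gut hormones left the difference of class medians at -0.12, as they lie on either side of the islet and gut medians. Placing them in different classes was not tried and could move it. As the genes were chosen with earlier results of these data known, no test was made between the classes. The classes overlap in where the hormones are made, so their comparison does not set pancreas against gut. The 95% interval of Ppy (-1.20 to -0.57) lay closer to 0 than those of the other 7 genes that fell, Ins2, Iapp, Gcg, Pyy, Ghrl, Gast and Cck. Within these 7 the intervals overlapped except that of Ghrl (-1.93 to -1.37) with those of Pyy (-2.74 to -2.03) and Cck (-2.87 to -2.13).

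**Figure D2:**
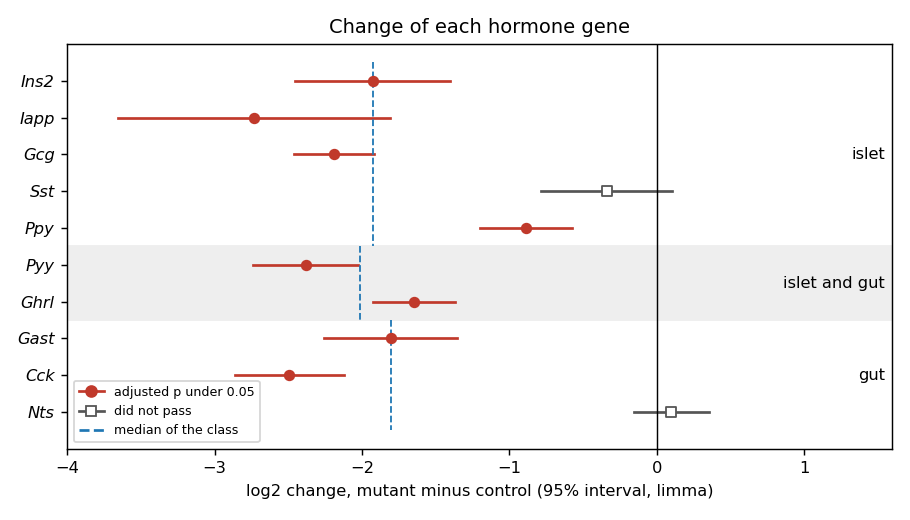
Log2 change of each hormone gene (horizontal axis, mutant minus control) with its 95% interval from limma, by class (vertical axis); red circles passed the test, open squares did not, and dashed lines are class medians. The class medians lie close together at -1.93, -2.02 and -1.81.

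The changes of 3 pairs of related genes were set against each other. The exact test used cannot go below p = 0.1 with 3 pools per genotype, so it could call no difference whatever its size. Ppy and Pyy belong to the neuropeptide Y family and are neighbours on chromosome 11, with starts 6513 bases apart. Ppy minus Pyy on the log2 scale was -1.80, -1.87 and -1.84 in the controls and -0.16, -0.24 and -0.63 in the mutants, so that the changes of the pair differed by 1.49. The genotypes did not overlap in this difference, and the two-sided exact permutation test gave p = 0.1, the smallest that 3 pools against 3 allow. Gast and Cck, which share the C-terminal end that their common receptor reads, differed by 0.69 in their changes (exact permutation p = 0.1, no overlap). For Ins2 and Iapp, which β cells release together, the changes differed by 0.80 with overlapping pools (exact permutation p = 0.2). With 3 pairs compared, the Benjamini-Hochberg adjusted values of these exact tests were 0.15, 0.15 and 0.2.

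The control pools differed among themselves in these genes in a shared way. Control replicate 2 had the highest control value in 8 of the 10 genes, all but Gcg and Nts, where it was the highest control pool in 38.8% of all genes. For Iapp it stood 1.01 log2 units above the control mean, for Ins2 0.65, for Sst 0.53 and for Gast 0.53. For Gcg it lay 0.09 below the control mean, so the pool with the most Ins2 and Iapp was not the pool with the most Gcg. Control replicate 2 was also the highest control pool for 10 of 14 genes of endocrine granules and 12 of 15 general epithelial genes, but for 1 of 8 endothelial genes, and the part of a difference in tissue make-up was not tested. The control pools spread more widely than the mutant pools in 8 of the 10 genes (median range 0.64 against 0.29 log2 units), where this held for 48.9% of all genes (0.22 against 0.22). Without control replicate 2 the same 8 genes passed the test, with Ins2 at a log2 change of -1.60.

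**Figure D3:**
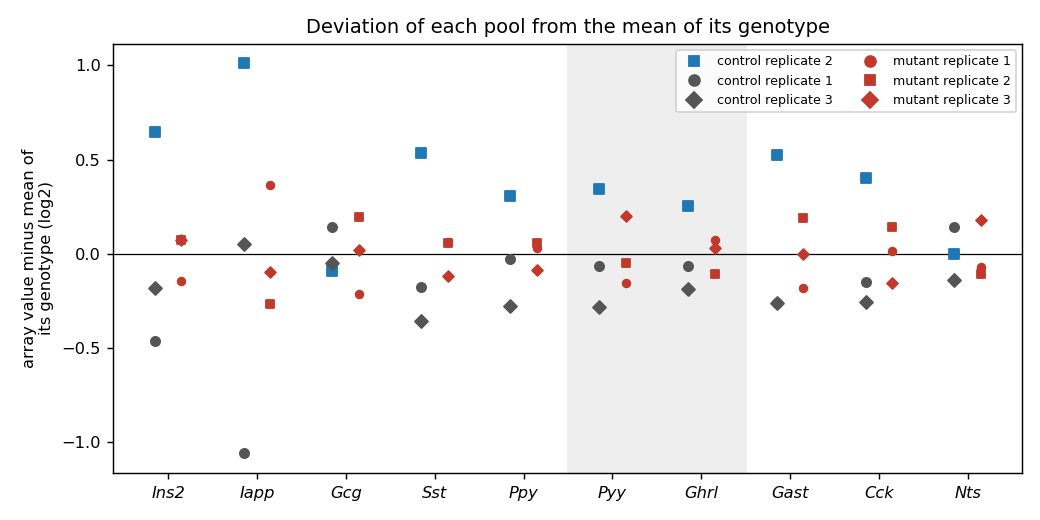
Array value of each pool minus the mean of its genotype (log2, vertical axis) for the 10 hormone genes; blue squares are control replicate 2, grey symbols the other control pools and red symbols the mutant pools. Control replicate 2 is the highest control pool in 8 genes and lies 0.09 below the mean for Gcg.

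The genes whose values over the 6 pools were most like those of Iapp, the largest decrease, were not hormone genes. Ranked by the root mean square difference after centring on the control mean, they were Bhlha15 (0.23 log2 units), Osr2 (0.42), Tinag (0.44), Mt2 (0.44) and Ptf1a (0.47). Bhlha15 and Ptf1a encode transcription factors of acinar cells, Osr2 a zinc finger transcription factor, Tinag a protein of basement membranes and Mt2 a metallothionein. The change of Bhlha15 was -2.69 ± 0.35 SE and that of Ptf1a -2.30 ± 0.20 SE. Ptf1a had a mean of 7.63 (log2) in the controls, above the 5.64 of the olfactory receptor reference there. Its mutant mean of 5.32 lay within the reference, as did that of Tinag at 4.90. All of these genes were picked for their likeness to Iapp in the same pools, so their decreases were part of the choice. Bhlha15 and Ptf1a are also among the genes the study itself listed from these arrays.

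The machinery that turns prohormones into active peptides was lower in part. Among 16 processing genes tested, 4 passed as lower and 1 as higher, against 7.53% and 6.59% of all genes. The other 11 fell short, and the median log2 change was -0.13. The 4 lower genes act in the secretory pathway. Pcsk1, the convertase that cuts proinsulin and other prohormones, had a measured decrease of 7.13-fold, from 8.29, 8.80 and 8.29 in the controls to 6.03, 5.68 and 5.18 in the mutants (log2 change -2.83 ± 0.21 SE, limma adjusted p = 1.25e-05). Its mutant mean of 5.63 lay within the olfactory receptor reference. Cpe, the carboxypeptidase that trims the cut peptides, fell 3.19-fold (log2 change -1.67 ± 0.11 SE). Pcsk1n, an inhibitor of that convertase, and Scg5, a chaperone of the related convertase Pcsk2, changed by -1.41 ± 0.24 SE and -0.81 ± 0.19 SE. Pcsk2 itself is not analysed here, and Scg5 lost its call when control replicate 1, control replicate 3 or mutant replicate 3 was left out (limma, adjusted p of 0.0844 at most over its alternatives). Mboat4, which acylates ghrelin, had a log2 change of -0.13 ± 0.10 SE (adjusted p = 0.476) beside the decrease of Ghrl. The gene that was higher was Mme, which encodes the peptide-degrading enzyme neprilysin (log2 change 0.56 ± 0.13 SE), named after its value was seen, and it did not pass without control replicate 1 or 3.

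Most receptors for these and related hormones fell short of the threshold. Among 26 tested, 4 passed as lower (7.53% of all genes) and 3 as higher (6.59% of all genes), and 19 fell short, with a median log2 change of -0.05. Cckar, the cholecystokinin receptor of the exocrine pancreas, fell 11.3-fold, from 10.41, 11.02 and 10.62 in the controls to 7.31, 7.32 and 6.94 in the mutants (log2 change -3.49 ± 0.16 SE, limma adjusted p = 6.91e-07). Cckbr, the receptor that gastrin also binds, had a log2 change of 0.13 ± 0.10 SE (adjusted p = 0.528). Sstr2, a somatostatin receptor, fell 2.72-fold in the measured values (log2 change -1.44 ± 0.14 SE) to a mutant mean of 5.58, within the olfactory receptor reference, and Sst itself did not pass. The genes of the amylin and calcitonin receptors divided, with Calcr (-0.55 ± 0.16 SE) and Ramp1 (-0.47 ± 0.10 SE) lower and Ramp2 (0.70 ± 0.11 SE) higher. The secretin receptor gene Sctr (0.76 ± 0.11 SE) and the receptor gene of glucagon-like peptide 2, Glp2r (0.57 ± 0.10 SE), were the others that were higher. The ghrelin receptor gene Ghsr (0.10 ± 0.09 SE) and the neurotensin receptor gene Ntsr1 (-0.11 ± 0.12 SE) did not pass. Calcr lost its call when any 1 pool other than mutant replicate 2 was left out, and Ramp1 without mutant replicate 1. Calcr, Ramp1, Glp2r, Cckbr, Ghsr, Ntsr1 and Mboat4 were named after their values were seen.

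Most other regulatory peptides fell short of the threshold. Among 28 tested, 7 passed as lower and 0 as higher by limma, against 7.53% and 6.59% of all genes. The other 21 fell short, and the median log2 change was -0.05. At an unadjusted p under 0.05 the counts were also 7 lower and 0 higher, where 25.5% of all genes passed in either direction. Cartpt, a neuropeptide gene that islet cells also express, fell 2.19-fold (log2 change -1.13 ± 0.14 SE) and Gal, the galanin gene of neurons, 1.92-fold (-0.94 ± 0.17 SE). Gip, the incretin gene of intestinal K cells, fell 1.56-fold, from 6.68, 6.82 and 7.15 in the controls to 6.26, 6.32 and 6.16 in the mutants on the log2 scale (limma adjusted p = 0.00714). Npy had a log2 change of -0.58 ± 0.16 SE. The remaining 3, Edn3 (-0.43), Trh (-0.43) and Nmu (-0.37), were named after their values were seen, Trh and Nmu had mutant means (5.58 and 4.71) within the olfactory receptor reference, and these 3 and Npy each lost the call without at least 3 of the 6 single pools. Gip thus went the same way as Gast and Cck, and no peptide gene of the gut on this list was higher.

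The regulators and the granule genes of endocrine cells were lower with the hormones. Among 24 endocrine transcription factors tested, 18 passed as lower and 1 as higher, against 7.53% and 6.59% of all genes. The other 5 fell short, and the median log2 change was -1.35. Neurog3, Pdx1, Neurod1 and Nkx2-2 had the largest log2 changes, at -4.61, -4.16, -3.99 and -3.16 (standard errors 0.19, 0.10, 0.17 and 0.10). The study itself listed all of these from the same arrays, so their direction is not independent evidence. The mutant mean of Neurod1 lay within the olfactory receptor reference. Isl1, named after its value was seen, was the factor that was higher (0.49 ± 0.12 SE), and it kept its call only without control replicate 2 or mutant replicate 2 when single pools were left out. Of 14 general endocrine granule genes, 12 were lower and none was higher, with a median of -1.33. At an unadjusted p under 0.05 the counts were also 12 lower and 0 higher, where 25.5% of all genes passed in either direction. The lower genes included Chgb (-3.72 ± 0.14 SE), Scg3 (-3.17 ± 0.17 SE), Scgn (-3.04 ± 0.29 SE) and Chga (-2.81 ± 0.17 SE). The mutant means of Scg3 (5.35) and Scgn (4.48) lay within the same reference. The mean level of the granule list ran from 7.79 to 8.27 (log2) in the control pools and from 6.37 to 6.47 in the mutant pools. Whether these decreases exceed those of the hormones was not tested.

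**Figure D4:**
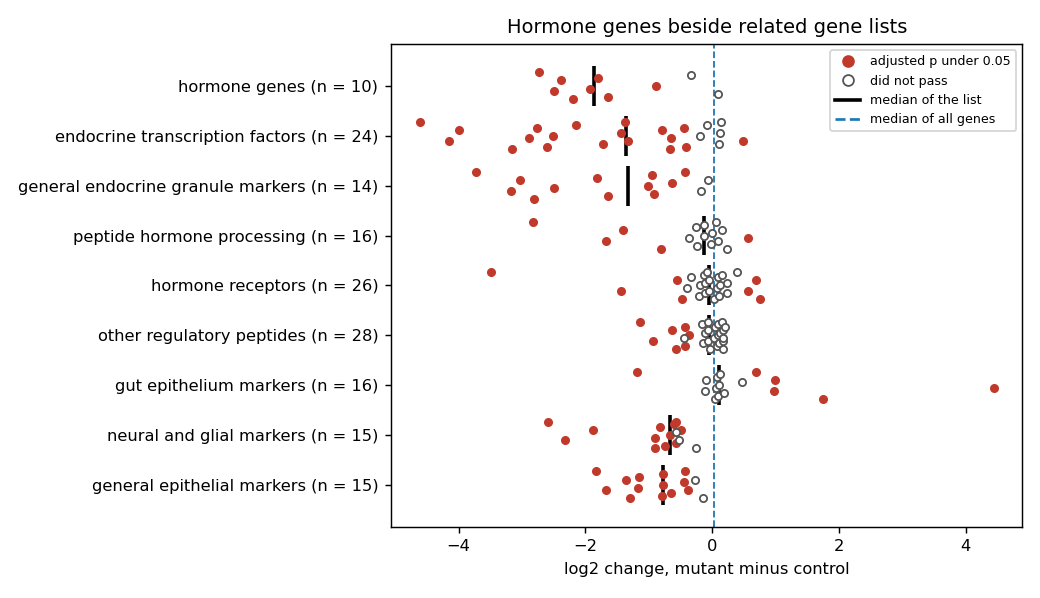
Log2 change (horizontal axis, mutant minus control) of every tested gene of the hormone set and 8 related lists (vertical axis, with the number of genes); filled red points passed the test, open points did not, thick bars are list medians and the dashed line is the median of all genes. The hormone genes have a median of -1.87, below those of the transcription factors at -1.35 and of the granule genes at -1.33.

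Markers listed for gut, neural, epithelial, endothelial and leukocyte cells were set beside the hormone genes. These lists are labels, and whether endocrine or other pancreatic cells account for the changes of their genes was not tested. For the counts that follow, 7.53% of all genes passed as lower and 6.59% as higher. At an unadjusted p under 0.05, 25.5% of all genes passed in either direction. Of 16 gut epithelial markers, 5 passed as higher and 1 as lower, and 10 fell short (median log2 change 0.12). The higher genes were Lgr5 (log2 change 4.44 ± 0.11 SE), Gata5 (1.75 ± 0.12 SE), Pitx1 (0.99 ± 0.15 SE), Cdx2 (0.97 ± 0.10 SE) and Sox2 (0.69 ± 0.14 SE). The study itself listed these 5 from the same arrays, so their direction is not independent evidence. Vil1 was lower (-1.19 ± 0.13 SE, to a mutant mean of 5.57 within the olfactory receptor reference). The mean level of this list ran from 5.77 to 5.82 (log2) in the controls and from 6.29 to 6.37 in the mutants. Lgr5, by far the largest change, pulls that mean up, while the list median of the changes was 0.12. Muc2, Muc5ac, Tff1, Tff2, Tff3 and Cdh17 were among the 10 that fell short. Gast, Cck and Gip were lower in the same pools. Of 15 neural and glial markers, 12 were lower and none was higher (15 lower at an unadjusted p under 0.05), with Ret (-2.59 ± 0.09 SE), Dcx (-2.32 ± 0.12 SE), Gap43 (-1.88 ± 0.14 SE) and Th (-0.90 ± 0.12 SE), and their mean level ran from 7.72 to 7.85 in the controls and from 6.76 to 6.93 in the mutants. Neurons also make Cck, Gal and Npy, and the part of nerve cells in those decreases was not tested. Of 15 general epithelial markers, 13 were lower and none was higher (14 lower at an unadjusted p under 0.05), with Krt8 (-1.84 ± 0.12 SE), Cdh1 (-1.68 ± 0.13 SE), Elf3 (-1.37 ± 0.09 SE) and Cldn3 (-1.30 ± 0.12 SE). Their mean level ran from 9.56 to 9.77 in the control pools and from 8.72 to 8.81 in the mutant pools, and the part of a smaller epithelial share in the hormone decreases was not tested. Of 8 endothelial markers only Cdh5 was higher (0.32 ± 0.09 SE), a call that was lost without any 1 pool. At an unadjusted p under 0.05, 5 of the 8 were higher, and in 4 every mutant pool lay above the controls (16.9% of all genes). Of 7 leukocyte markers 0 passed by limma (1 at an unadjusted p under 0.05, Ptprc at a log2 change of 0.20). The mean level of the endothelial list ran from 9.10 to 9.29 in the controls and from 9.37 to 9.51 in the mutants, and its part in the higher value of Ramp2, which vessels express, was not tested. The leukocyte list overlapped, at 7.12 to 7.25 and 7.20 to 7.46.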

How the data were processed

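RNA of 6 pools of E13.5 mouse pancreata, 3 control and 3 mutant by the sample labels, was measured on 1 Affymetrix Mouse Gene 1.0 ST array each. The table the authors deposited gives log2 values, 1 per transcript cluster and array. The background correction, probe summary and normalization of these values were not given in the sources used here. Medians per array ran from 6.37 to 6.47 and single values from 0.98 to 14.14. No detection calls were used, and the number of arrays and the low end of their scale limit the precision.

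Rows were named through the platform annotation: of 35556 rows, 21789 had 1 symbol, 1621 several and 12146 none. The first kind was tested, with the row of highest mean for each of 999 genes with several, which left 19938 genes. Of these, 19856 matched RefSeq genes of GRCm38.p6 by Entrez identifier and 0 symbols changed. Coordinates belong to the RefSeq promoters alone.

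Mutant was compared with control with lmFit and eBayes of limma 3.58.1 (R 4.3.3), without covariates or a filter for low values, and with p-values adjusted by Benjamini-Hochberg over all genes and a threshold of 0.05; changes are mutant minus control and intervals are 95%. On simulated data for this comparison (19938 genes, 5 runs), log2 changes of 0.5, 1 and 2 were recovered for 29.6%, 94.8% and 100.0% of genes. Each size was given to 250 genes over the 5 runs, and 0.0456% of 98690 unchanged genes were called. Whether these rates hold for the deposited arrays, where 14.1% of genes passed in either direction, was not tested. Motifs were searched on both strands over the 250 bases before each start.

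The hormone genes and all lists were chosen with earlier results of these data known. The lists cover other regulatory peptides, processing enzymes, receptors, endocrine transcription factors and markers of granules, gut, neural, epithelial, endothelial and leukocyte cells. Of the 182 listed genes, 169 were tested, and the others are not analysed here. Besides the 10 hormone genes, the text names Ctnnb1, up to 4 genes of each list with the largest change past the test (or that with the smallest p), and the 5 genes nearest to Iapp. A further 12 were named with their values in view. Cdx2, Sox2 and the gut markers that fell short are also named, and these were not run through the alternatives.

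Alternatives were the replicate number as a block, single pools left out, other normalizations, filters, row rules, priors, array weights and thresholds. Python 3.11.15, pandas 2.3.3 and matplotlib 3.10.9 were used for tables and figures.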

Additional observations from a re-analysis of the deposited data

How the results depend on the processing

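Every hormone gene kept its direction and its side of the threshold in all alternatives in which it was tested, and the 8 lower genes passed at an adjusted p under 0.01 as well. A filter at the median level left out Ins2, Sst and Nts, so that 7 were lower, and a filter at the lower quartile left out Nts. The highest adjusted p of the 8 over the alternatives was 0.0327, for Iapp with a trended and robust prior. The median change of the islet hormones ran from -2.12 to -1.60 when single pools were left out, the latter without control replicate 2. The difference between the islet and gut medians was -0.026 with array weights.

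Counts over all genes moved more. Higher genes numbered 843 to 1328 with single pools left out, the lowest without mutant replicate 1, 751 with all rows in the fit and 723 at an adjusted p under 0.01. Array weights gave 2422 lower and 3025 higher, and an unadjusted p under 0.05 gave 2386 lower and 2695 higher. With arrays centred on their medians 1375 were lower and 1667 higher, so that the direction with more calls turned, while the hormone counts stayed at 8 and 0; this scaling left 3 receptors and 5 other peptides lower.

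With the replicate number as a block, 1274 genes were lower and 1011 higher, with 8 hormone genes lower. The numbers share no stated origin, and deviations of same-numbered pools correlated at 0.01, -0.15 and -0.05, so the pools were not treated as pairs. Of the 52 other named genes run through the alternatives, 46 passed the test and 10 of these lost the call in at least 1 alternative. Ctnnb1 and Ptprc gained it, Ctnnb1 without mutant replicate 2 (adjusted p = 0.0486, limma) and with array weights (0.0123), Ptprc with array weights (0.0483), and both without adjustment. Of 45 named genes that were lower, 11 had mutant means within the olfactory receptor reference. Signals near the low end of the array, as for Nts in all pools and Ins2 in the mutant pools, limit what can be measured there.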

Other observations

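The 1027 olfactory receptor genes, which are not expected in the pancreas and were used here as a guide to the low end of the arrays, had a median log2 change of 0.05, with 1 called lower and 8 called higher by limma. With the 167 vomeronasal receptor genes in their place, whose mutant 95th percentile was 5.13, the 9 hormone genes other than Nts lay above the reference in both genotypes, Ins2 in the mutant pools included.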
